A study of Mus musculus with 6 samples.

Results

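The genes described here are 42 genes of the contractile and stress fibre programme that the transcription factor SRF and the coactivators YAP and TAZ are known for. They were taken by symbol from a list of actins, actin-binding proteins, myosins, adhesion proteins, SRF and YAP pathway members and YAP target genes. All 42 were found among the 20295 genes of the count table, and 41 of them passed the filter on low counts that left 11732 genes for testing. The list was compared between the libraries lettered a and b within each fat depot, and between depots.

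RNA was sequenced from cultured adipocytes that had formed from the stromal-vascular fraction of 3 fat depots of the mouse: brown fat (BAT), epididymal white fat (eWAT) and inguinal white fat (iWAT). That fraction is the mix of precursor, vascular and immune cells that collagenase releases from fat once the mature adipocytes are removed. Donors were NMRI males, 4 to 5 weeks of age, and for BAT the interscapular, cervical and axillary sites were combined. Every culture was kept in 10% newborn calf serum with 30 nM insulin and 1 µM rosiglitazone, an activator of the adipogenic receptor Pparg. Harvest was 8 days after plating (the sample descriptions carry a tag for day 7), and cultures qualified only if over 50% of their cells had differentiated. Each depot has 2 libraries, replicate 1 with the letter a and replicate 2 with the letter b, so that n = 2 per depot and n = 3 per letter. The labels do not say what a letter stands for, nor that replicates came from separate animals or cultures. The p-values below are thus set against the spread of these samples alone, which may be technical, and animals, culture, day and library preparation cannot be told apart in the letter.

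Total counts in BAT, eWAT and iWAT were 4807449, 4094340 and 4244019 in the a libraries and 2889038, 3363453 and 3857918 in the b libraries, so the a library was the deeper in every depot. Levels are given in CPM, read counts brought to a common library size with trimmed-mean (TMM) factors, and 3 counts equal 0.634 to 1.15 CPM at these depths. All 16 genes of an adipocyte core list were above 0 in every library. Ucp1, the uncoupling protein of brown adipocytes, stood at 4924, 59.6 and 1114 CPM in the a libraries and 9294, 62.9 and 995 CPM in the b libraries of BAT, eWAT and iWAT, highest in the libraries labelled BAT. Sets of 3 values are always in the order BAT, eWAT, iWAT.

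Precursor cells on stiff plastic build actin stress fibres that pull on focal adhesions. When G-actin is used up in filaments, the coactivators Mkl1 and Mkl2 (MRTF-A and MRTF-B) enter the nucleus and join SRF at CArG boxes in the promoters of actin and contractile genes. The same tension lets Yap1 and Wwtr1 (TAZ) enter the nucleus and join TEAD factors, whose binding site holds the letters GGAATG, at genes such as Ctgf and Cyr61. As fat precursors round up and fill with lipid, stress fibres are dismantled, and both branches are known to restrain adipogenesis.

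To show what these sites look like in the members, promoters from RefSeq (build GRCm38.p6, 250 bases before to 50 after each gene start) were searched on both strands for the CArG box and for GGAATG. The CArG box was searched as CCWWWWWWGG, where W is A or T. No mismatch was allowed, so a promoter without a match may still hold a box that departs from this pattern. The table held 34 of the 42 members with 40 promoters, matched by current or older symbol (Cyr61 is listed there as Ccn1). The members with no entry were Actg2, Actb, Tagln, Myh11, Synpo, Myocd, Tead1 and Ctgf. A CArG box was in 5 of the 40 member promoters (12.5%, against 1.63% of all 32851 promoters of that length), 1 promoter each of Actg1, Cnn2, Myl9, Srf and Vcl. GGAATG was in 20 of 40 (50%, against 14.7% of all), which belong to 19 members. Among the members with a promoter, 4 of 18 whose level was called lower in the b libraries (below) and 1 of 16 not called had a CArG box, and 9 of 18 and 10 of 16 had GGAATG. A match describes letters only, not a bound site. The stretches around the CArG boxes and around the TEAD motif of Cyr61 follow, 5′ to 3′ on the strand of the gene, with the motif in capitals. They lie between 250 and 22 bases before the start, at chr10:79988519-79988578 (+) for Cnn2, chr11:120348551-120348610 (-) for Actg1, chr2:156775278-156775337 (+) for Myl9, chr14:20929148-20929285 (+) for Vcl, chr17:46556190-46556269 (-) for Srf and chr3:145650058-145650113 (-) for Cyr61. Vcl was the one member with both motifs, which do not overlap there, and Srf has 2 CArG boxes.
Cnn2: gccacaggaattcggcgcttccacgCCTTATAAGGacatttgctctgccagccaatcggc
Actg1: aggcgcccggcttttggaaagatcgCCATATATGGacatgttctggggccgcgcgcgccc
Myl9: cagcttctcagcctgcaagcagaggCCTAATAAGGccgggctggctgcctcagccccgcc
Vcl: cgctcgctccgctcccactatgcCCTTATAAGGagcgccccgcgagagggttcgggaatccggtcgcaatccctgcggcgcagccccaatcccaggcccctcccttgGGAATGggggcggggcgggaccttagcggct
Srf: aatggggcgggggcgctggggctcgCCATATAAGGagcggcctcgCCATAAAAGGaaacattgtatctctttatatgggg
Cyr61: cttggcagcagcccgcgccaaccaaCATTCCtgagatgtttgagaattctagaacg

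In all 3 depots most of these genes stood lower in the b library than in the a library. Of 41 tested members, 22 (53.7%) fell in b at an adjusted p below 0.05 and none rose (two-sided F test by edgeR's quasi-likelihood method with depot and replicate number as terms, Benjamini-Hochberg over 11732 genes). Over all tested genes 4.77% were called lower and 1.99% higher. At an unadjusted p below 0.05 there were 34 of 41 members against 26% of all genes, and DESeq2 called 26 members and limma voom 24, again none higher. The median fitted difference of the members was -1.11 on the log2 scale, against 0.01 for all tested genes. Beyond the test, 34 of 41 members (82.9%) had b below a in all 3 depots, as did 23.4% of all genes, while no member had b above a in all 3 (25.3% of all genes). In 27 of 41 members (65.9%) every b library lay below every a library, whatever the depot, against 8.71% of all genes. Within 1 depot the comparison is 1 library against 1 and has no test. The median member difference there was -1.87, -0.90 and -1.06 for the BAT, eWAT and iWAT pairs (log2 of CPM plus 0.5). The b library held under 50% of the a level for 27, 20 and 21 of 41 members in BAT, eWAT and iWAT, against 11.9%, 7.47% and 7.3% of all genes. Summed over the 42 members the level was 12873, 13577 and 10424 CPM in the a libraries and 4229, 6758 and 5407 CPM in the b libraries. In RNA of whole cultures, fewer cells of a kind and less RNA per cell cannot be told apart.

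**Figure D1:**
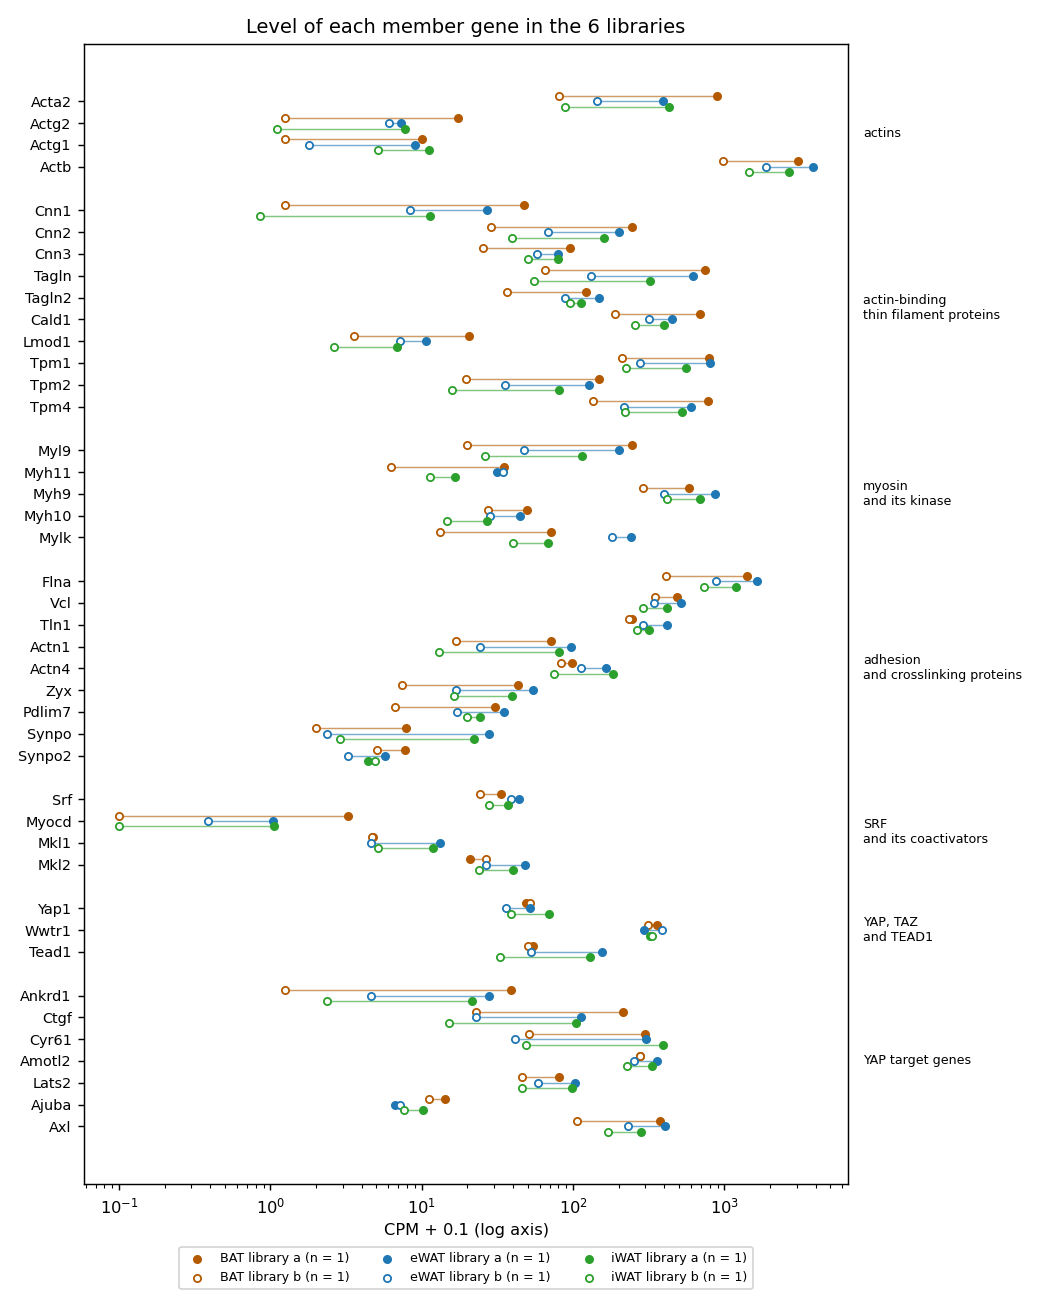
Level of each of the 42 member genes in each of the 6 libraries, as CPM plus 0.1 on a log axis, grouped by role; filled circles are a libraries, open circles b libraries, 1 library each, and a line joins the pair of a depot. Open circles lie to the left of filled ones for most structural genes and for Ankrd1, Ctgf and Cyr61. The circles of a depot lie close together for Wwtr1, and for Yap1 and Amotl2 they do so in BAT.

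Of the 4 actins, 3 fell. Actb, the cytoplasmic beta actin of all cells, stood at 3072, 3848 and 2679 CPM in the a libraries and 973, 1879 and 1454 CPM in the b libraries, with no overlap between the letters, a difference of -1.19 ± 0.19 (log2, SE; adjusted p = 0.0151). Acta2, the alpha actin of smooth muscle and myofibroblasts, had a larger fitted difference. Its levels were 898, 393 and 433 CPM in a and 81.1, 144 and 87.7 CPM in b, or 574 ± 281 against 104 ± 34.5 CPM (mean ± SD, n = 3 depots). All b values were again below all a values, and the fitted level was 5.23-fold lower in b (-2.39 ± 0.34, adjusted p = 0.0113). Actg1, the cytoplasmic gamma actin, was counted at only 9.93, 8.85 and 11.1 CPM in a and 1.15, 1.71 and 5.03 CPM in b (-1.92 ± 0.40, adjusted p = 0.0354). Its value is uncertain, since 56.7% of the 50-base windows of its transcript also occur in transcripts of 22 other genes, the pseudogene Actg-ps1 among them; for Actb that share was 14.2%. Actg2, the enteric smooth muscle gamma actin, was at 17.3, 7.22 and 7.70 CPM in a and 1.15, 5.97 and 1.01 CPM in b and missed the threshold (adjusted p = 0.102). Its BAT libraries held 82 and 3 counts, a CPM ratio of 15.1 with an exact 95% counting interval of 4.99 to 74.8, while in eWAT the pair differed little. Per kilobase of counted length, averaged over the 6 libraries, Actb was at 1227 CPM, Acta2 at 132, Actg2 at 5.12 and Actg1 at 3.32 CPM.

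Among the 10 actin-binding proteins of the thin filament, 6 fell and 9 had no overlap between the letters. Tagln (SM22), an early smooth muscle protein that bundles actin, was at 747, 624 and 323 CPM in the a libraries and 65.4, 131 and 55.1 CPM in the b libraries. The lowest a library thus held over 2 times the highest b library, and the fitted level was 6.76-fold lower in b (-2.76 ± 0.24, adjusted p = 0.00322); the gene overlaps Pcsk7 on the opposite strand, which had 928 counts against 8407. Calponins bind actin and slow myosin. Cnn1, the smooth muscle calponin, was at 47.3, 27.0 and 11.3 CPM in a and 1.15, 8.25 and 0.754 CPM in b (-3.02 ± 0.54, adjusted p = 0.022). Its b libraries of BAT and iWAT held 3 counts each, against 224 and 47 in a, so the ratios there were 41.3 (counting interval 13.9 to 202) and 15.0 (4.83 to 75.3). Cnn2, the calponin of non-muscle cells, ran at 243, 202 and 160 CPM in a and 28.7, 67.7 and 39.2 CPM in b and fell by 2.18 ± 0.26 on the log2 scale (adjusted p = 0.00619). Cnn3, the acidic calponin, had 94.9, 79.7 and 79.6 CPM in a and 25.2, 57.5 and 50.0 CPM in b, a smaller gap that missed the threshold (-0.96 ± 0.26, adjusted p = 0.0688). Per kilobase, as means of the 6 libraries, Cnn2 was the highest of the 3 at 69.3 CPM, followed by Cnn3 at 32.2 (16.4% of its windows are shared with other genes) and Cnn1 at 8.04 CPM, although in the iWAT b library Cnn3 was above Cnn2.

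All 3 tropomyosins among the members, coiled coils that lie along actin filaments, fell. Tpm1 stood at 791, 802 and 561 CPM in a and 211, 275 and 224 CPM in b (-1.59 ± 0.15, adjusted p = 0.00386). For Tpm2 the levels were 148, 127 and 81.1 CPM in a and 19.5, 35.6 and 15.8 CPM in b (-2.34 ± 0.20, adjusted p = 0.00322), and for Tpm4 they were 779, 598 and 522 CPM in a and 135, 217 and 219 CPM in b (-1.73 ± 0.24, adjusted p = 0.0106). None of these 3 overlapped between letters, and per kilobase they ranked Tpm1 (280 CPM), Tpm4 (198, with 12.1% of windows shared) and Tpm2 (33.8). Tpm3, a tropomyosin outside the members, was at 27.3, 36.8 and 23.3 CPM in a and 15.3, 25.0 and 24.1 CPM in b. Its letters overlapped and it was not called (-0.43 ± 0.20, adjusted p = 0.229). The remaining thin filament members had b below a in all 3 depots but did not pass. Cald1 (caldesmon, a brake on actomyosin) was at 694, 451 and 401 CPM in a and 189, 315 and 256 CPM in b (-1.0 ± 0.26, adjusted p = 0.063). Tagln2, the widespread relative of Tagln, was at 122, 148 and 112 CPM in a and 36.7, 88.2 and 95.8 CPM in b (adjusted p = 0.087). Lmod1, the smooth muscle leiomodin that nucleates actin, was at 20.3, 10.5 and 6.74 CPM in a and 3.44, 7.11 and 2.51 CPM in b (adjusted p = 0.073). Of the 10 genes, Lmod1 was the one in which a and b libraries overlapped across depots.

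Myosin motors pull on these filaments, and 3 of the 5 myosin genes fell. Myl9, the regulatory light chain that Mylk phosphorylates, was at 243, 200 and 115 CPM in a and 19.9, 46.9 and 25.9 CPM in b, 5.88-fold lower by the fit (-2.56 ± 0.28, adjusted p = 0.00569). The b values did not reach any a value. Myh9, the heavy chain of non-muscle myosin IIA, was at 580, 865 and 688 CPM in a and 289, 397 and 416 CPM in b (-0.95 ± 0.13, adjusted p = 0.0105). Myh10, that of non-muscle myosin IIB, was at 49.5, 44.5 and 26.9 CPM in a and 27.1, 28.2 and 14.6 CPM in b; the drop was alike in the 3 depots (-0.85, -0.65 and -0.86 on the log2 scale), but the iWAT a library lay below both other b libraries (-0.80 ± 0.14, adjusted p = 0.022). The smooth muscle heavy chain Myh11 and the kinase Mylk did not pass. Myh11 was at 34.7, 31.2 and 16.4 CPM in a and 6.12, 34.1 and 11.3 CPM in b, lower in b in BAT and iWAT and level in eWAT (adjusted p = 0.295). Mylk, at 71.0, 243 and 68.3 CPM in a and 13.0, 179 and 39.7 CPM in b, was below a in every depot, most in BAT (-1.05 ± 0.32, adjusted p = 0.0931). Per kilobase, as means of the 6 libraries, Myh9 was at 72.5 CPM, Myh10 at 4.09 and Myh11 at 3.36 CPM. Myh9 was highest in each library, whereas the order of the other two turned in the eWAT b library (5.15 for Myh11 and 3.62 for Myh10).

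Of the 9 adhesion and crosslinking genes 5 fell, and their sizes ranged widely. Actn1, an alpha-actinin that crosslinks stress fibres, had 71.2, 97.1 and 81.1 CPM in a and 16.8, 24.2 and 12.8 CPM in b, 4.72-fold lower (-2.24 ± 0.17, adjusted p = 0.00175). Its relative Actn4 was at 98.5, 165 and 182 CPM in a and 83.4, 113 and 74.2 CPM in b, and did not pass (-0.70 ± 0.20, adjusted p = 0.0764). The pair thus had b below a in all depots, with no overlap for Actn1 and overlap for Actn4. Synpo (synaptopodin, which stabilizes stress fibres) was at 7.82, 27.7 and 21.9 CPM in a and 1.91, 2.28 and 2.77 CPM in b, 8.07-fold lower (-3.01 ± 0.32, adjusted p = 0.00562); its b libraries hold few counts. Zyx (zyxin), a sensor of tension in focal adhesions, was at 43.1, 54.0 and 39.2 CPM in a and 7.26, 16.8 and 16.3 CPM in b (-1.75 ± 0.24, adjusted p = 0.00981). Flna (filamin A), which links actin filaments to each other and to integrins, was at 1409, 1629 and 1189 CPM in a and 414, 874 and 736 CPM in b (-1.11 ± 0.22, adjusted p = 0.0285). Neither gene overlapped between letters.

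Vcl (vinculin), which joins talin to actin under load, fell by 0.53 ± 0.11 on the log2 scale, the smallest difference among the 22 (adjusted p = 0.0371). Its levels were 484, 513 and 416 CPM in a and 350, 342 and 288 CPM in b, a like step in each depot and no overlap. Tln1 (talin), which binds integrin tails, was at 246, 420 and 315 CPM in a and 233, 290 and 262 CPM in b and did not pass (-0.29 ± 0.13, adjusted p = 0.201). Pdlim7, an alpha-actinin partner, was at 30.4, 34.7 and 24.3 CPM in a and 6.50, 17.1 and 19.9 CPM in b, also short of the threshold though without overlap (adjusted p = 0.0913). Synpo2 (myopodin) was low, from 3.13 to 7.61 CPM in all libraries, with no common direction.

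Among the regulators, none of the 3 tested SRF pathway members and none of Yap1, Wwtr1 and Tead1 was called. Without the BAT libraries, however, Mkl1, Mkl2, Yap1 and Tead1 were called lower, without a filter Mkl1 and Tead1, and with DESeq2 or limma voom Tead1. Srf itself was at 33.2, 44.0 and 36.8 CPM in the a libraries and 24.1, 38.7 and 27.9 CPM in the b libraries, below a in each depot by a small step (-0.34 ± 0.14, adjusted p = 0.176). For its 2 coactivators b was below a in both white depots, while in BAT the values were close for Mkl1 and higher in b for Mkl2. Mkl1 was at 4.65, 13.0 and 11.8 CPM in a and 4.59, 4.55 and 5.03 CPM in b (adjusted p = 0.117), and overlaps Sgsm3 on the opposite strand, which had 336 counts against its 175. Mkl2 was at 20.7, 48.2 and 39.9 CPM in a and 26.4, 26.5 and 23.6 CPM in b (adjusted p = 0.274). Myocd (myocardin), the smooth muscle coactivator of SRF, failed the filter. It had 15, 4 and 4 counts in the a libraries and 0, 1 and 0 in the b libraries, a ratio of 17.6 for the sums with an exact 95% counting interval of 2.86 to 727.

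Wwtr1 (TAZ) was the tested member nearest to no difference, at 358, 295 and 322 CPM in a and 314, 385 and 332 CPM in b (0.08 ± 0.14, adjusted p = 0.762). Yap1 was at 48.8, 51.5 and 69.5 CPM in a and 52.0, 35.8 and 38.7 CPM in b (-0.43 ± 0.19, adjusted p = 0.198), and its letters overlapped. Tead1, the DNA-binding partner of both, was level in BAT and lower in b in the other depots. It stood at 53.9, 154 and 129 CPM in a and 50.1, 52.3 and 32.7 CPM in b (-1.25 ± 0.32, adjusted p = 0.062), with no overlap between letters. A p above the threshold does not show that these levels were the same.

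**Figure D2:**
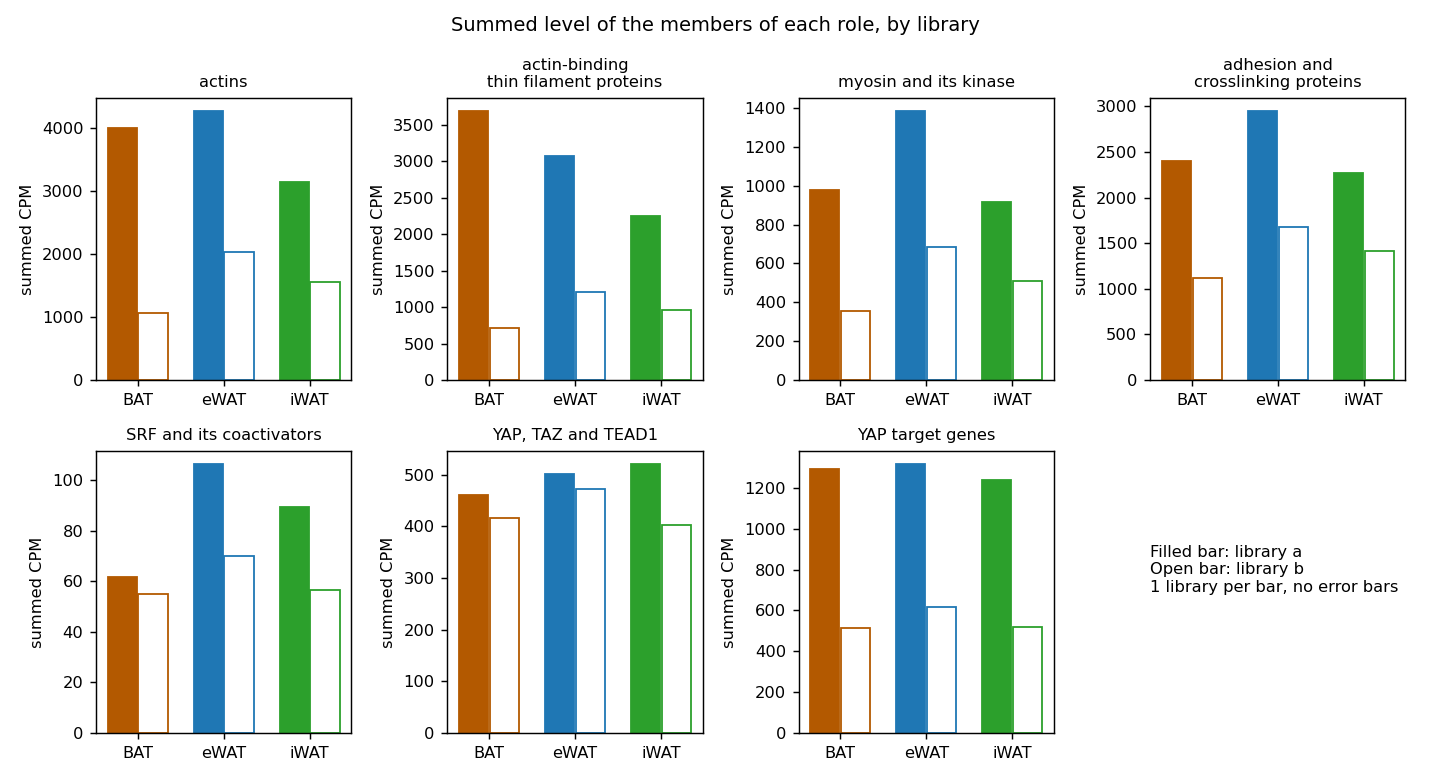
Summed CPM of the members of each role in each library, on axes that start at 0, with filled bars for a and open bars for b libraries (1 library per bar, so no error). The open bar is below the filled one in all panels, and in proportion to the filled bar the gaps are wider for actins, thin filament proteins, myosins and YAP target genes than for YAP, TAZ and TEAD1.

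Among the 7 YAP target genes 5 fell, and these included the member with the smallest p-value of all 11732 genes. Cyr61, a secreted matricellular protein and textbook YAP target on chromosome 3, 145309935-145312949 (mm9), was at 297, 302 and 392 CPM in the a libraries and 51.2, 41.0 and 49.0 CPM in the b libraries. The lowest a value was over 5 times the highest b value, and the 3 depots gave like differences of -2.52, -2.87 and -2.99 on the log2 scale. The fit put it 7.01-fold lower in b (-2.81 ± 0.14, adjusted p = 0.000628). Ctgf, its relative on chromosome 10, 24315248-24318488 (mm9), was at 212, 112 and 105 CPM in a and 22.6, 22.8 and 15.1 CPM in b, 6.81-fold lower and at rank 6 of all genes by p (-2.77 ± 0.19, adjusted p = 0.00164). Ankrd1, a stretch-responsive ankyrin repeat protein, had the largest fitted difference of all members, -3.35 ± 0.37 (adjusted p = 0.00569). Its levels were 38.7, 27.5 and 21.4 CPM in a and 1.15, 4.55 and 2.26 CPM in b; the BAT pair held 183 and 3 counts, a ratio of 33.7 with a counting interval of 11.4 to 165.

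Lats2 and Axl had smaller fitted differences. Lats2, the kinase that inhibits YAP and is induced by it, was at 80.3, 103 and 98.6 CPM in a and 45.5, 58.6 and 45.5 CPM in b (-0.92 ± 0.12, adjusted p = 0.00993), but 56.5% of its 50-base windows also occur in the annotated transcript of Gm49361. Axl, a receptor tyrosine kinase, was at 372, 405 and 282 CPM in a and 105, 229 and 169 CPM in b (-1.12 ± 0.21, adjusted p = 0.028). Both were without overlap between letters. Amotl2, a YAP-binding angiomotin that YAP also induces, was at 277, 360 and 330 CPM in a and 278, 253 and 228 CPM in b, level in BAT and lower in b in the white depots (adjusted p = 0.178). Ajuba, a LIM protein that inhibits Lats kinases, was low at 14.2, 6.52 and 10.1 CPM in a and 11.1, 7.11 and 7.54 CPM in b, and overlapped (adjusted p = 0.584).

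**Figure D3:**
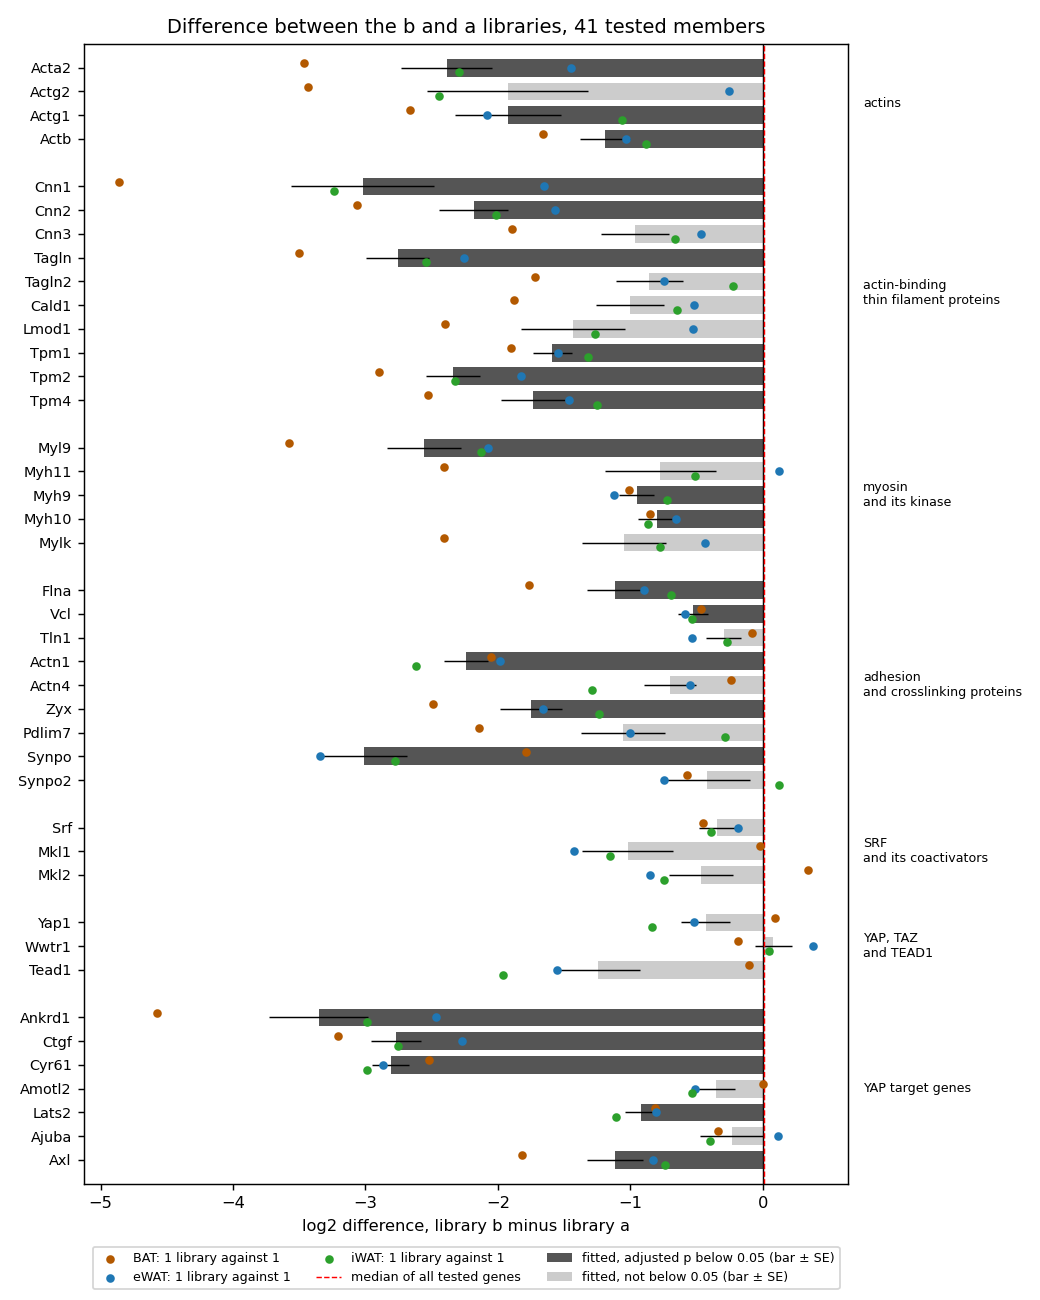
Difference of library b from library a for the 41 tested members, on the log2 scale. Bars are the fitted difference over 3 depots with its SE, dark where the adjusted p is below 0.05 (22 bars); points are single depots, 1 library against 1, and the dashed line is the median of all tested genes at 0.01.

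The members differed in how alike the depots were. Vcl gave -0.47, -0.58 and -0.53 on the log2 scale and Lats2 -0.81, -0.80 and -1.11, much alike. Acta2 gave -3.46, -1.45 and -2.30 and Ankrd1 -4.57, -2.47 and -2.99, with the BAT pair furthest apart. Whether b minus a differs between depots could not be tested, since a fit with that term leaves no residual degrees of freedom. Across the 41 members the b minus a differences of eWAT and iWAT correlated at r = 0.78, those of BAT and iWAT at 0.69 and those of BAT and eWAT at 0.52, as a description in which the points of a depot share their libraries; over all tested genes the values were 0.56, 0.45 and 0.41. Without the BAT pair, 31 members were called, among them all of the 22. Without the iWAT pair 18 were called, and Cnn1, Myh10, Vcl and Axl were lost. Without the eWAT pair 15 were called, and Actg1, Actb, Myh9, Myh10, Flna, Vcl, Lats2 and Axl were lost while Actg2 was gained.

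Lists of other genes from the same pathways were tested for the same letter difference. Over all tested genes, 4.77% were called lower and 1.99% higher, with a median of 0.01 on the log2 scale. Of 45 tested other genes of the actin cytoskeleton and SRF, 15 fell and 1 rose, with a median of -0.52. Parva (parvin alpha, an integrin-linked adaptor) was at 98.5, 133 and 131 CPM in a and 47.8, 70.3 and 63.4 CPM in b (-1.0 ± 0.11, adjusted p = 0.00569). Fhl2, a LIM protein that binds SRF, differed by -1.69 ± 0.20 and Myl12a, a myosin regulatory light chain, by -0.91 ± 0.12 (adjusted p = 0.00606 and 0.00848). The gene that rose was Gsn (gelsolin), which severs actin filaments, from 220, 784 and 1014 CPM in a to 429, 1872 and 1698 CPM in b (0.99 ± 0.15, adjusted p = 0.0127). In the list of Hippo pathway genes and TEAD partners, 2 of 18 tested genes fell: the TEAD cofactor Vgll3 (-1.62 ± 0.12, adjusted p = 0.00175) and the upstream regulator Frmd6 (-1.03 ± 0.23, adjusted p = 0.0418). Of 14 tested other YAP target genes 4 fell, led by Crim1 (-1.48), Myof (-1.04) and F3 (-1.0), and Gadd45a rose (1.08 ± 0.21, adjusted p = 0.0299).

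Other gene lists moved with the letter as well, where 4.77% of all tested genes were called lower and 1.99% higher. The adipocyte core list summed to 52661, 42203 and 47525 CPM in the a libraries and 72052, 52548 and 49192 CPM in the b libraries, and 3 of its 16 genes rose: Slc2a4 (the insulin-responsive glucose transporter; 0.95), Cebpa (0.63) and Dgat1 (0.58). Of 15 cell cycle genes 10 fell, among them Mki67 (-1.31), and their sum went from 791, 1235 and 753 CPM in a to 317, 534 and 430 CPM in b. Macrophage markers summed to 438, 4783 and 640 CPM in a and 94.1, 2094 and 186 CPM in b, with 6 of 10 lower. Fibroblast and preadipocyte markers summed to 6611, 22616 and 26878 CPM in a and 4242, 21426 and 24620 CPM in b. Of the 13 tested, 2 fell (Col1a1, -2.53, and Col1a2, -0.94) and 1, Pi16, was called higher. Pi16 had 1, 14 and 2 counts in a and 0, 68 and 53 counts in b, so it rose in the white depots and was near 0 in BAT. Pericyte markers, with 0 of 8 tested genes called, summed to 411, 498 and 507 CPM in a and 284, 570 and 498 CPM in b, and endothelial markers, also 0 of 8, to 231, 70.1 and 194 CPM in a and 120, 150 and 214 CPM in b. At an unadjusted p below 0.05, 2 pericyte and 0 endothelial genes passed, and counts by the other tools were not taken for these lists. Skeletal muscle markers summed to 63.8, 23.1 and 16.1 CPM in a and 40.9, 7.11 and 26.4 CPM in b. Of the 4 tested, 1 (Acta1) was lower. Ckm was at 0 in 5 libraries and Myod1 in 5. Of all 17 genes, however, 1, 6 and 7 were at 0 in the a libraries and 4, 10 and 2 in the b libraries. Ttn (titin) was at 24.9, 7.92 and 5.77 CPM in a and 19.1, 3.98 and 8.80 CPM in b, highest in BAT. Mesothelial markers summed to 14.2, 36.6 and 31.8 CPM in a and 16.1, 65.4 and 13.6 CPM in b, with 0 of 3 tested called (1 at an unadjusted p below 0.05). Total counts, too, were lower in every b library. The part of these lists and of depth in the members' difference was not tested.

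**Figure D4:**
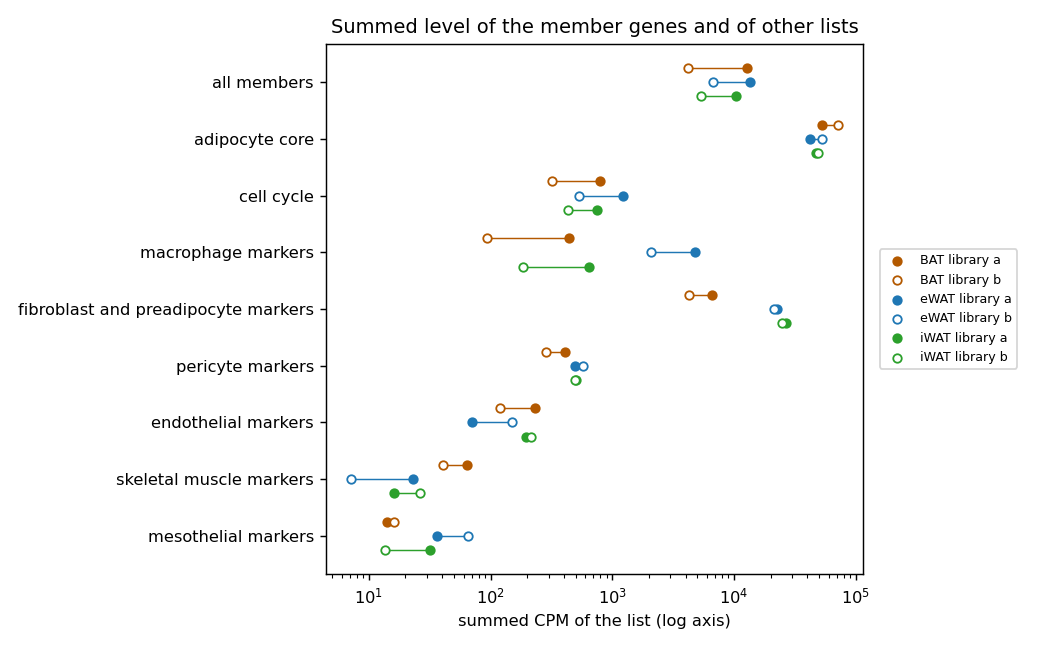
Summed CPM of the 42 members and of other gene lists in each library, on a log axis; filled circles are a libraries, open circles b libraries, and a line joins the pair of a depot. The members, cell cycle and macrophage lists lie lower in b in every depot. So does the fibroblast and preadipocyte list, by little in eWAT and iWAT. The adipocyte core list lies higher in b, by little in iWAT.

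Between depots none of the 41 tested members was called in any of the 3 comparisons (the same test on depot alone). Over all genes, 6.46% were called between BAT and eWAT, 1.04% between BAT and iWAT and 0% between iWAT and eWAT. At an unadjusted p below 0.05 the members numbered 3, 0 and 1 of 41, against 25.9%, 16.6% and 9.34% of all genes. DESeq2 called 1 (Mylk), 0 and 0 members and limma voom none. The spread within a depot was wide for the contractile genes: Acta2 was at 489 ± 577 CPM in BAT, 268 ± 176 CPM in eWAT and 260 ± 244 CPM in iWAT (mean ± SD, n = 2). Libraries of the 2 depots did not overlap for 6 of 41 members between BAT and eWAT, 5 between BAT and iWAT and 6 between iWAT and eWAT, against 55.2%, 48% and 38% of all genes.

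When the replicate number entered the fit as a block, a few members were called. Mylk, the kinase that switches on smooth muscle and non-muscle myosin, was called in both comparisons with eWAT. Its libraries were at 243 and 179 CPM in eWAT, 71.0 and 13.0 CPM in BAT and 68.3 and 39.7 CPM in iWAT, so both eWAT libraries lay above all others. With the block it was lower in BAT by 2.51 ± 0.39 on the log2 scale (adjusted p = 0.005; -2.29 ± 0.70 and 0.104 with no block). In iWAT it was likewise lower than in eWAT, by 2.03 ± 0.38 (adjusted p = 0.0268; 0.409 with no block). These comparisons share the eWAT libraries. Summed macrophage markers were also highest in eWAT, at 4783 and 2094 CPM against 94.1 to 640 CPM in the other libraries. So were summed mesothelial markers, at 36.6 and 65.4 CPM against 13.6 to 31.8 CPM. The part of either list was not tested.

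With the block, Synpo and Tln1 were also lower in BAT than eWAT (-1.53 ± 0.38 and -0.55 ± 0.16, adjusted p = 0.0269 and 0.0447), where 23.7% of all genes were called. Without the block their adjusted p was 0.515 and 0.186. Tln1 had 246 and 233 CPM in BAT and 420 and 290 CPM in eWAT, with no overlap, whereas the Synpo libraries of the depots overlapped. Against iWAT, Myh10 and Ctgf were higher in BAT with the block, as 10.4% of all genes were called (0.89 ± 0.18 and 0.87 ± 0.22, adjusted p = 0.0253 and 0.0483; 0.359 and 0.748 with no block). Myh10 was also lower in iWAT than in eWAT (-0.82 ± 0.18, adjusted p = 0.0428; 0.727 with no block), where 4.8% of all genes were called. It stood at 26.9 and 14.6 CPM in iWAT, below every library of the other depots. So with the block 3, 2 and 2 of 41 members (7.32%, 4.88% and 4.88%) were called, shares below those of all genes in the comparisons with BAT and near it between iWAT and eWAT.

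**Figure D5:**
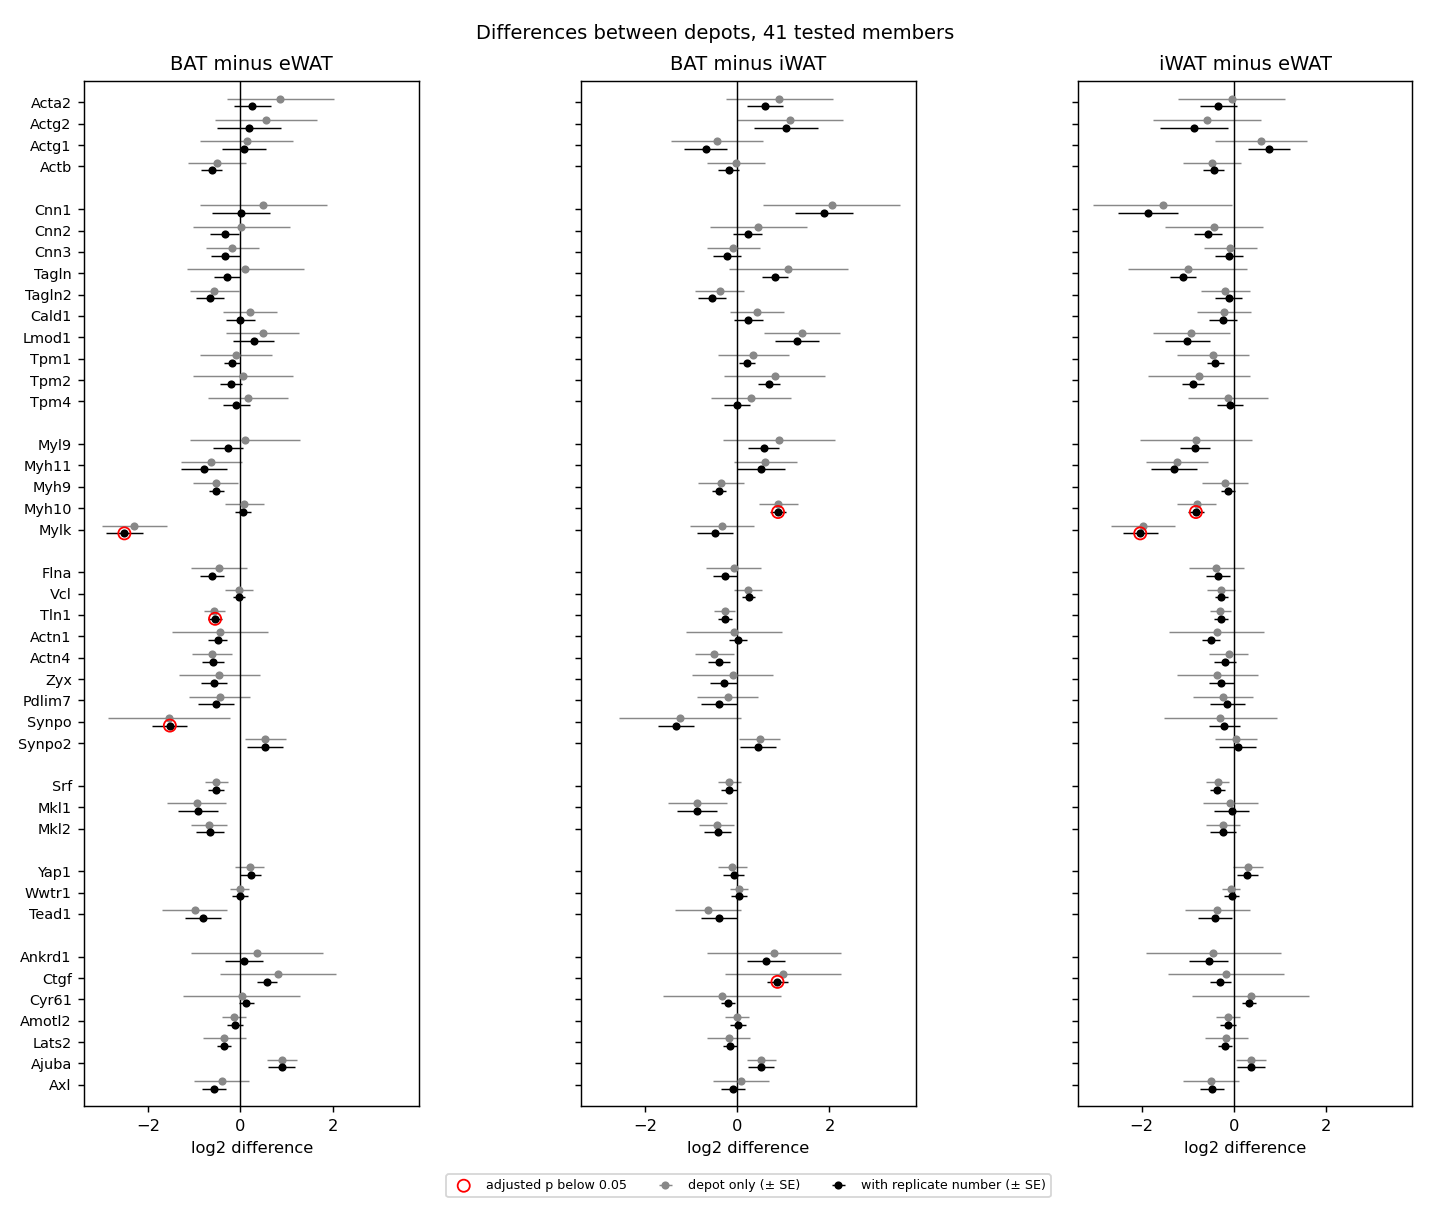
Difference between depots for the 41 tested members on the log2 scale, with SE, in the fit on depot alone (grey) and with the replicate number as a block (black); circles mark an adjusted p below 0.05. Most SE bars are shorter with the block, and the circled genes are Mylk, Tln1, Synpo, Myh10 and Ctgf.

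Members with no call between depots can be placed by their order. Ajuba was the member highest in BAT in both comparisons without overlap, at 14.2 and 11.1 CPM against 6.52 and 7.11 CPM in eWAT and 10.1 and 7.54 CPM in iWAT (adjusted p = 0.146 against eWAT). Srf was highest in eWAT, at 44.0 and 38.7 CPM, above both libraries of BAT and of iWAT, by small steps that did not pass (adjusted p = 0.246 for BAT minus eWAT). Cnn1 had wide values, 2.04 ± 1.49 in BAT relative to iWAT and -1.55 ± 1.50 in iWAT relative to eWAT, on the log2 scale, with SEs near the values themselves. The median difference of the members was -0.10 when eWAT was subtracted from BAT, -0.01 when iWAT was subtracted from BAT and -0.30 when eWAT was subtracted from iWAT (-0.03, -0.02 and 0.01 over all genes). Its sign turned on single libraries: for BAT minus eWAT it was -1.58 without the BAT a library and 0.49 without the eWAT a library. With depot alone in the fit, 3 of the 45 other actin and SRF genes were called between BAT and eWAT, against 6.46% of all genes. The adhesion adaptor Lims2 and the LIM proteins Fhl1 and Csrp2 were higher in BAT (2.07 ± 0.22, 1.46 ± 0.18 and 1.04 ± 0.22, adjusted p = 0.0149, 0.0204 and 0.0466). Lower in BAT were 1 of 18 Hippo genes, the kinase Taok3 (-1.43 ± 0.28, adjusted p = 0.0414), and 1 of 14 other YAP target genes, Igfbp3 (-2.98 ± 0.63, adjusted p = 0.0464). Against iWAT, Fhl1 was the one gene of these lists called (1.39 ± 0.18, adjusted p = 0.0332), where 1.04% of all genes were called. Between iWAT and eWAT none was called, with 3 of the 45 other actin and SRF genes and 0 of the others at an unadjusted p below 0.05.

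The replicate block changed these counts too, and the added calls in the comparisons with BAT were lower there except for Lims2 against iWAT; with it edgeR called 23.7%, 10.4% and 4.8% of all genes in the 3 comparisons, as above. Between BAT and eWAT it called 3 of the 45 other actin and SRF genes higher (Lims2, Fhl1 and Csrp2 again) and 9 lower, the lowest adjusted p being that of the actin-severing protein Gsn (-1.99 ± 0.18, adjusted p = 0.000931). It also called 4 of 18 Hippo genes lower, led by Taok3 (-1.43 ± 0.25, adjusted p = 0.00771), and 4 of 14 other YAP target genes, led by Myof (-1.35 ± 0.19, adjusted p = 0.00374). Against iWAT, 2 other actin and SRF genes were higher in BAT with the block (Fhl1 and Lims2) and 3 lower (Gsn, Flnc and Capg). The Hippo genes Frmd6 and Taok3 and the YAP target genes Igfbp3 and Nt5e were lower in that comparison as well. Between iWAT and eWAT 1 gene of these lists was called with the block, the actin monomer-binding thymosin Tmsb4x, lower in iWAT (-1.27 ± 0.25, adjusted p = 0.034; 0.87 with no block).

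At an adjusted p below 0.05, the authors' deposited table of depot tests called members in each comparison: 11 of 42 for iWAT against eWAT, 3 for BAT against eWAT and 5 for BAT against iWAT (8.52%, 15.6% and 8.24% of its 20295 genes). These shares are over a wider set of genes than those above. Of the 20295 genes counted, 2596 were at 0 in all libraries and 11732 passed the filter used here, as did 41 of the 42 members. In the authors' deposited table Mylk had the smallest adjusted p of the members in both comparisons with eWAT, at log2 fold changes of -2.00 in iWAT and -2.71 in BAT. For BAT against eWAT, the authors' deposited table also had Synpo lower (-1.52) and Ajuba higher (0.91) in BAT. All 11 members that the authors' deposited table called between iWAT and eWAT were lower in iWAT, among them Tagln (-1.09), Myh11 (-1.25), Cnn1 (-1.69) and Myl9 (-0.83). Against iWAT, the authors' deposited table had Cnn1 (1.91), Lmod1 (1.25), Myh10 (0.85) and Ctgf (0.82) higher in BAT and Synpo lower (-1.32). Its comparisons share libraries in the same way as those above.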

How the data were processed

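RNA of 6 samples was depleted of ribosomal RNA, made into TruSeq libraries and sequenced, per the labels' protocols. The submitters' processing notes name the aligner STAR and the build mm9; their versions, the read counter, the strand setting and the handling of multiply mapping reads were not given in the sources used here. One deposited table holds raw read counts per gene. A second deposited table holds the authors' log2 expression per library and, per pair of depots, their log2 fold change, p-values and a likelihood ratio statistic, whose tool is not stated per the file headers; the sign was read as the depot named last minus the one named first, which correlated at 0.774 to 0.807 across genes with the differences computed here.

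Counts were filtered with filterByExpr (depots as groups), scaled by TMM and tested with the quasi-likelihood F test of edgeR 4.0.16 (R 4.3.3), two-sided, Benjamini-Hochberg over 11732 genes, in fits of all 6 libraries (biological coefficient of variation 0.251 on depot alone, 0.145 with the replicate number). SE is the log2 difference divided by the square root of F. Intervals and bounds on counts cover counting error only, and reads carry no molecular identifiers. The labels number the replicates 1 and 2 in each depot. The replicate differences of the depots correlated at 0.41 to 0.56 over all tested genes, so the numbers were taken to pair the libraries, a hint from the data and not from the labels; blocked values are given with the depot results whose calls they change. Alternatives used DESeq2 1.42.0, limma voom 3.58.1, other scalings and filters, and left out libraries. Scripts were tested on simulated data. Windows of 50 bases were compared between the transcript sequences of a GRCm38 annotation, whereas the counts are on mm9. Coordinates of genes are mm9 from the table, those of promoters GRCm38.p6. Figures used matplotlib 3.10.9.

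The members, the other gene lists and the tests were chosen with earlier results of these data known. All 42 members are named, in order of role, with every library given for those called in any comparison, or with a mean of at least 20 CPM and 1 order of the letters in 3 depots. Of other lists that are not cell type lists, up to 3 called genes with the smallest adjusted p are named. Ucp1, Gsn, Capg, Flnc, Tpm3, Frmd6, Myof, Nt5e, Tmsb4x, Gadd45a, Col1a1, Col1a2, Pi16, Acta1, Ckm, Myod1 and Ttn were named outside this rule, after their values were seen.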

Additional observations from a re-analysis of the deposited data

Results flagged for a closer look

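For 7 members the single depots had opposite signs of b minus a (log2 of CPM plus 0.5, 1 library against 1), a difference between depots that was not tested. Myh11 was 0.127 in eWAT and below 0 in BAT and iWAT. Synpo2 was 0.128 in iWAT and below 0 elsewhere. In BAT, Mkl2 was at 0.342, Yap1 at 0.0903 and Amotl2 at 0.00504, each below 0 in both white depots. Wwtr1 was at -0.188 in BAT and above 0 in the white depots, and Ajuba at 0.116 in eWAT and below 0 in the others. None of these 7 genes passed the test across depots.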

How the results depend on the processing

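The letter difference of the members kept its direction under the other scalings, filters and tools and without any depot: 15 to 33 members were lower in b and 0 higher, with a median of -1.33 to -0.92 on the log2 scale. All 22 called members were called again with other scalings, with no filter, with the stricter filter and with limma voom, and 21 with DESeq2, which lost Myh10. Wwtr1, not called in any of these fits, ran from -0.077 without the eWAT pair to 0.21 without the BAT pair. Over all genes, no filter gave 610 called higher and 1227 lower in b, and DESeq2 146 higher; leaving out a depot gave 21 to 409 higher and 186 to 1011 lower.

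Depot comparisons depended more on the settings. For BAT minus eWAT, 1937 genes and 1 member (Mylk) were called with no filter, 1370 and 1 (Mylk) with DESeq2, 2780 and 3 with the replicate block, and 156 genes in a fit of the 4 libraries alone. Without single replicates it gave 17 to 829 genes, 0 to 2 members (Myh11 and Mylk without BAT replicate 1) and member medians of -1.58 to 0.49, among them -0.58 without eWAT replicate 2; Synpo ran from -2.96 without BAT replicate 1 to 1.18 without eWAT replicate 1. For BAT minus iWAT the counts were 780 genes with no filter, 510 with DESeq2, 69 with limma voom and 1225 with the replicate block, which called 2 members. Without single replicates there were 0 to 94 genes (0 without BAT replicate 2 or iWAT replicate 2, 4 without iWAT replicate 1, 17 without BAT replicate 1) and medians of -1.17 to 0.67, and Ctgf ran from -1.41 without BAT replicate 1 to 2.98 without iWAT replicate 1. For iWAT minus eWAT they were 557 genes and 1 member (Mylk) with no filter, 301 genes with DESeq2, 1 with limma voom, 2 in the 4 libraries alone and 563 genes and 2 members with the replicate block. Single replicates left out gave 0 to 3 genes and medians of -0.92 (without iWAT replicate 1) to 0.31 (without eWAT replicate 1), and the median was -0.36 with no scaling factors and -0.28 with DESeq2. The block changed no member's call beyond those given in the report. Where a left-out replicate leaves 1 library in a depot, that library is assumed to vary like the others. The cause of these changes was not tested.

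With 1 library per letter and depot, an exact test of sign over 3 depots cannot go below p = 0.25, so the letter difference rests on the model fit with 2 residual degrees of freedom. Depth limits Myocd, Actg2, Actg1, Cnn1, Ankrd1 and Synpo, whose b libraries hold few counts. Apart from that, a fit with no filter on low counts moved 11 uncalled members past the threshold. All of them had also been tested with the filter, and many were not low in counts.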
